A study of Homo sapiens with 24 samples.

Results

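The 8 genes described here encode the FOS proteins (FOS, FOSB, FOSL1 and FOSL2), the JUN proteins (JUN, JUNB and JUND) and ATF3. They were taken by symbol from the 37247 gene rows of the tables, and all 8 passed the filter on low counts that left 14986 genes to test. RNA was sequenced from MDA-MB-231, an established human breast cancer line, after 72 h with 1 ug/ml doxycycline, which all lines received, control included. There were 4 lines. One was a control, one overexpressed wild-type MRTF-A (WT), and the others overexpressed mutants titled dSAP and dSRF, abbreviations left unexplained in the labels. MRTF-A, the product of MRTFA, binds SRF and turns on its target genes when actin polymerises. Each line was grown flat on plates (2D) or over a layer of matrigel, a gel of basement membrane proteins (3D). This gave 8 groups of 3 libraries, 24 in all. Whether a line is 1 clone, and whether libraries of a group came from separate cultures, is not said in the labels, so p-values measure the spread between these libraries, which may be technical.

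AP-1 is a family of paired transcription factors. A JUN protein pairs with a FOS protein or with another JUN protein through a leucine zipper, and the pair binds short DNA elements in promoters and enhancers, while FOS proteins need a JUN partner. FOS, FOSB, JUN, JUNB and ATF3 are early response genes, whose RNA rises and falls within hours of growth factors or stress, and FOS is a classic target of SRF and its ternary complex partners. FOSL1 (FRA-1) and FOSL2 (FRA-2) lack the strong activation domain of FOS and FOSB, and FOSL1 is known for its high level in mesenchymal breast cancer lines such as this one. ATF3 belongs to the ATF/CREB family, can pair with JUN proteins, and is a usual reporter of stress and of the ATF4 pathway.

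Sequence was available for 8 promoters of 7 genes in the RefSeq promoter table (GRCh38.p14, 250 bases before to 50 after each start site, ATF3 with 2 start sites); FOSL1 was not among them. Both strands of each window were searched for the AP-1 element TGANTCA. They were also searched for TGACGT, the core of the CRE that ATF and CREB proteins bind. The full CRE, TGACGTCA, contains that core. The variant TGACATCA is known from the JUN promoter. The TATA box (TATAAA) and the CArG box that SRF binds were searched as well. The stretches that hold TGACGT in the 3 FOS family promoters and TGACATCA in those of JUN and ATF3 are shown because they let promoters with the same matched letters be compared, 5′ to 3′ with the matched letters in capitals.
FOS (chr14:75278688-75278773, plus strand): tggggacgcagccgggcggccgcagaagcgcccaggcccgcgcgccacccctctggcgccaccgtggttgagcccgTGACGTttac
FOSB (chr19:45467856-45467994, plus strand): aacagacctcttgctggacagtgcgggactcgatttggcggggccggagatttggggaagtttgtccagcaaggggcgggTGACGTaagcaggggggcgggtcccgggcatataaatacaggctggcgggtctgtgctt
FOSL2 (chr2:28392781-28392810, plus strand): gagtctggggtTGACGTgagtgaatccaca
JUN (chr1:58784096-58784125, minus strand): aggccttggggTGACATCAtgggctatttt
ATF3 (chr1:212565267-212565333, plus strand): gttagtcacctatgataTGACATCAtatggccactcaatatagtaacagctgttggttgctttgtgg
TGACGT began 64 bases before the start site in FOS, 60 in FOSB and 66 in FOSL2, and was also in the JUND window, which held the only TGACGTCA. Over 35116 promoters of the same length, 7.98% held TGACGT and 1.85% TGACGTCA. TGACATCA began 67 bases before the start site of JUN and 123 before the upstream start site of ATF3, and 2.61% of promoters held it. FOSL2 alone of these genes had a TGANTCA (7.71% of promoters). A TATAAA was found in FOS, FOSB, JUNB and the downstream start of ATF3 (11.5% of promoters). No CArG box lay in these 8 windows (1.29% of promoters had one), which says only that these letters are not in 300 bases. A match is a description of letters and not a measured binding site.

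Library totals ran from 13968829 to 23023415 estimated counts. MRTFA was at 28.8 to 39.1 CPM (counts scaled to library size, with TMM factors) in the 6 control libraries and at 3170 to 10716 CPM in 17 of the 18 others. The exception was the library labelled 3D dSRF 1, at 664 CPM of MRTFA. The level also differed by line, at 4444 to 4878 CPM in WT, 8765 to 10716 in dSAP and 3170 to 3361 in 2D dSRF. Libraries 2 and 3 of 3D dSRF had 4840 and 4857 CPM. Whether the level of MRTFA bears on differences between these lines was not tested. Across genes the log2 CPM of the library labelled 3D dSRF 1 correlated at r = 0.952 with the rest of its group, against 0.976 and 0.980 for libraries 2 and 3. With the mean of 2D dSRF it stood at r = 0.971, close to the 0.972 and 0.974 of libraries 2 and 3. Results that rest on the library labelled 3D dSRF 1 are given with and without it. Groups follow the titles, since the genotype field disagrees with them for 16 of the 24 libraries. The marker genes that follow are given as CPM without TMM factors. Markers of the line were high in all libraries (VIM at least 1175 CPM, AXL at least 713), and ESR1, PGR and the leukocyte gene PTPRC were at 0.116 CPM or less. Of the other luminal and epithelial genes, CDH1 reached 2.27 CPM and GATA3 ran from 6.07 to 29.04. Of the fibroblast genes PDGFRB ran from 2.60 to 34.0 CPM and COL1A1 from 8.90 to 124. In bulk RNA, fewer cells of a type and less RNA per cell cannot be told apart.

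The composition of the family was compared as TPM, which corrects for gene length. On this scale FOSL1 made up most FOS family RNA and JUND most JUN family RNA in the control line. In 2D control, FOSL1 held 77.1% ± 1.85 (mean ± SD, n = 3) of summed FOS family TPM and FOSL2 22.3% ± 1.72, which left 0.478% ± 0.112 for FOS and 0.0937% ± 0.0591 for FOSB. Of JUN family TPM, JUND held 66.9% ± 1.82, JUN 20.4% ± 0.382 and JUNB 12.7% ± 1.68. In 3D control the FOSL1 share was 74.9% ± 1.59 and that of FOSB 0.488% ± 0.0701, while JUNB reached 21.3% ± 0.732 of the JUN family. Thus the genes with the largest fold changes below, FOSB and ATF3, were among the least abundant: in 2D control ATF3 stood at 10.8 ± 1.71 TPM against 348 ± 50.6 TPM for FOSL1. The largest shares depend on the scale. In 2D control JUND had 2.66 TPM per CPM and JUNB 1.31, though their exon bases number 1863 and 1820. By counts JUN held 49.2% of its family and JUND 36.7%, and FOSL2 held 55.2% and FOSL1 44.4%.

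**Figure D1:**
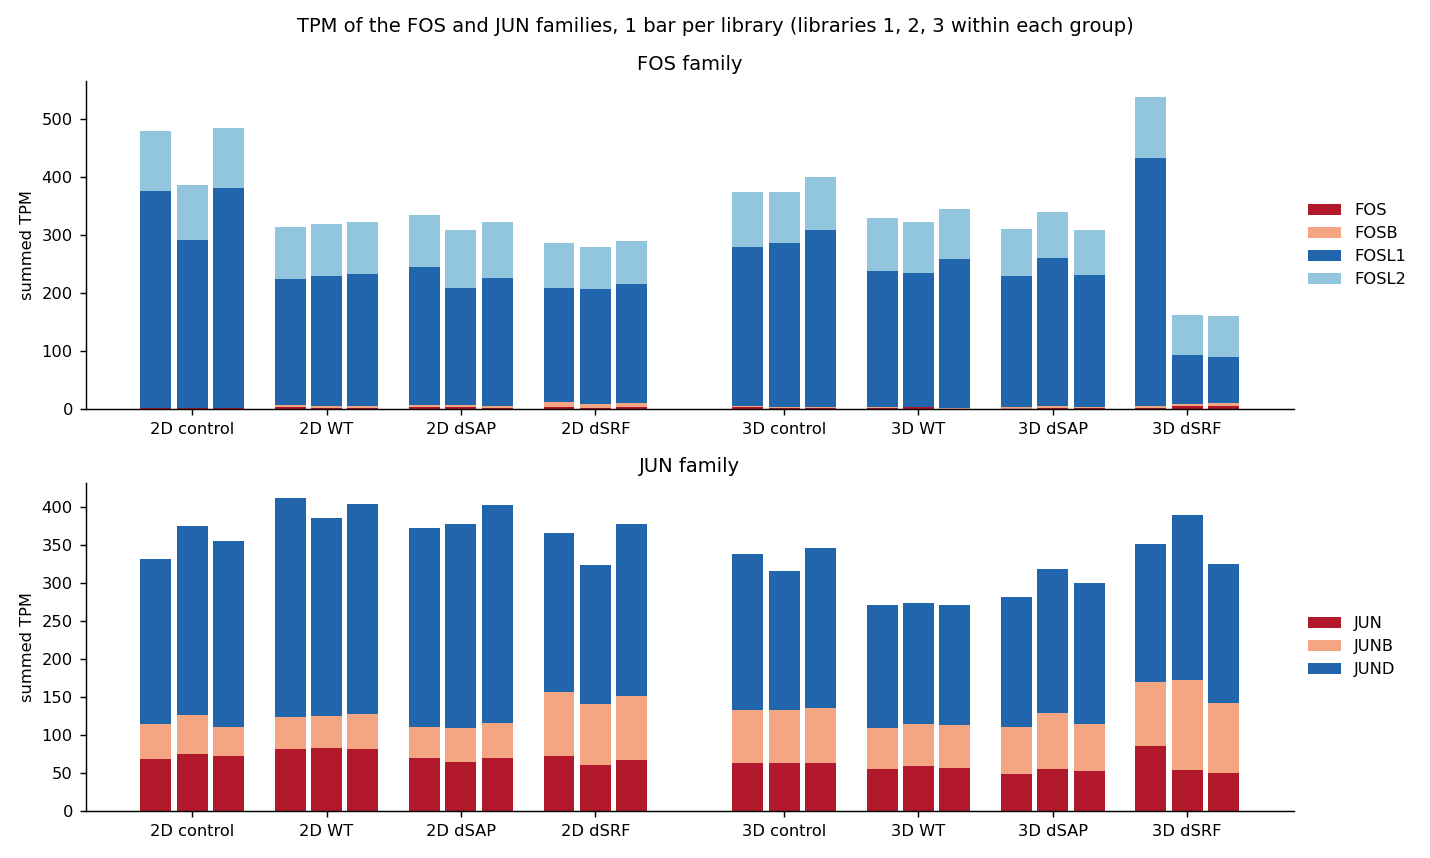
Summed TPM (y axis) of the FOS family (top) and the JUN family (bottom) in each of the 24 libraries (x axis, 3 bars per group), stacked by gene. FOSL1 is at least 65.6% of the FOS family bar outside 3D dSRF and 51.7% and 49.8% in libraries 2 and 3 of that group, and FOSB is a thin band that is widest in the dSRF line.

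FOSB rose with each form of MRTF-A in 2D, most with dSRF, and in 3D it rose with dSRF. The gene (ENSG00000125740, chromosome 19, 45467995 to 45475179, plus strand, GENCODE 29 on GRCh38) encodes a FOS protein that is nearly silent in resting cells. In 2D its level was 0.680, 0.706 and 0.435 CPM in the control libraries, 5.76, 5.59 and 5.35 in WT, 5.03, 6.41 and 5.97 in dSAP, and 11.1, 9.85 and 10.55 in dSRF. The control libraries lay below all others, dSRF lay above all others, and WT and dSAP overlapped. Against control these were log2 fold changes of 3.19 ± 0.20 (SE of the fit), 3.24 ± 0.20 and 4.10 ± 0.20, or 9.10-fold, 9.47-fold and 17.2-fold (edgeR, adjusted p = 1.36e-10, 2.18e-10 and 1.36e-12). dSRF exceeded WT by 0.92 ± 0.16 (adjusted p = 6.36e-05) and dSAP by 0.86 ± 0.16 (adjusted p = 0.000122).

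In 3D the FOSB libraries read 2.73, 1.99 and 2.46 CPM in control, 1.92, 1.43 and 1.71 in WT, 2.54, 2.42 and 2.24 in dSAP and 4.04, 4.80 and 6.16 in dSRF. WT lay just below control without overlap, dSAP overlapped control, and dSRF was highest in all 3 libraries. The dSRF line was 1.06 ± 0.17 above control (adjusted p = 1.90e-05), and 1.19 ± 0.17 without the library labelled 3D dSRF 1. WT was 0.50 lower (SE 0.18, adjusted p = 0.0387), a call lost in 10 of 31 alternative settings, DESeq2 and the TPM scale among them, and dSAP differed from control by 0.01 ± 0.18 (adjusted p = 0.994). Control itself was 1.97 ± 0.21 higher in 3D than in 2D (3.92-fold, adjusted p = 2.17e-07), whereas the log2 fold changes of the WT, dSAP and dSRF lines from 2D to 3D were -1.71, -1.27 and -1.07. The change against control was therefore smaller in 3D than in 2D by -3.68 ± 0.27 for WT, -3.24 ± 0.27 for dSAP and -3.04 ± 0.26 for dSRF (adjusted p at most 9.82e-07). FOSB counts were low, 8 to 204 per library, and ERCC1, which lies on the opposite strand, shares none of its exon bases.

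**Figure D2:**
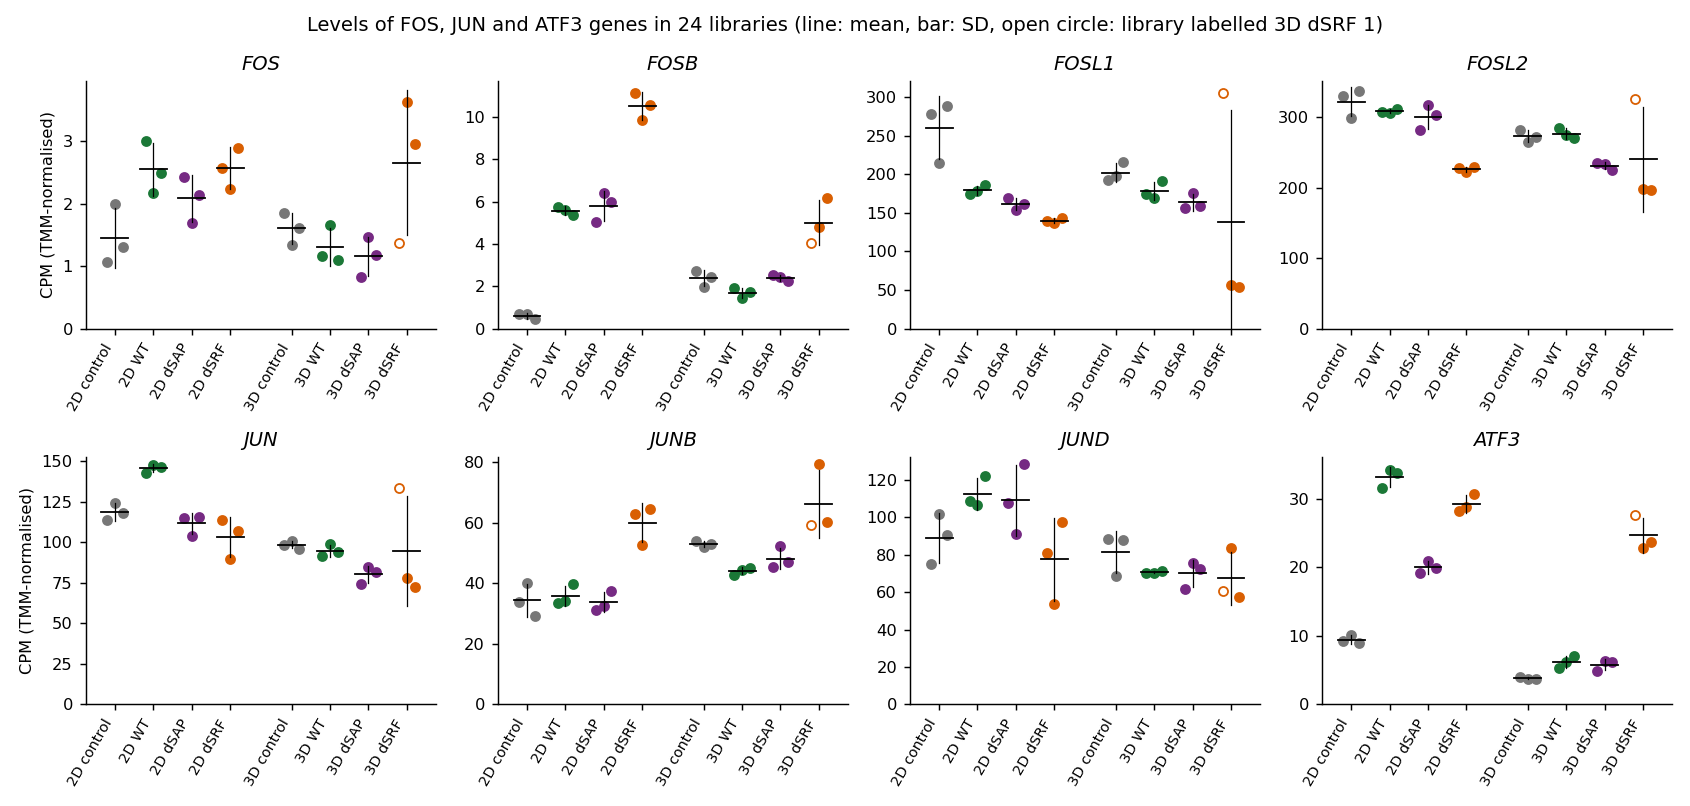
Level in TMM-normalised CPM (y axis, from 0, its own scale for each gene) of the 8 genes in each library (points) of the 8 groups (x axis), with the mean (line) and SD (bar). The open circle is the library labelled 3D dSRF 1, which for FOSL1, FOSL2 and JUN lies far above the other 2 of its group.

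ATF3 was higher with every form of MRTF-A in both cultures, and its pattern across lines differed between the cultures. The gene (ENSG00000162772, chromosome 1, 212565334 to 212620777, plus strand) had 9.28, 10.1 and 8.97 CPM in 2D control, 31.6, 34.2 and 33.8 in 2D WT, 19.2, 21.0 and 19.9 in 2D dSAP, and 28.2, 28.8 and 30.7 in 2D dSRF. None of these 4 groups overlapped another, with WT at the top and dSAP between control and dSRF. The rises over control were 1.81 ± 0.10, 1.08 ± 0.10 and 1.63 ± 0.10 for WT, dSAP and dSRF (adjusted p = 1.95e-11, 8.24e-08 and 3.93e-11). dSAP was 0.73 lower than WT (SE 0.10, adjusted p = 3.46e-05). With all libraries ATF3 was the only gene of the 8 called between these lines in 2D, where 12.8% of all genes were called. Without the library labelled 3D dSRF 1 JUN was called too (-0.39, adjusted p = 6.18e-05), where 27.7% of all genes were called. Between dSRF and WT the value was -0.18 ± 0.10 (adjusted p = 0.0987).

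In 3D ATF3 stood at 4.00, 3.74 and 3.76 CPM in control, 5.37, 6.18 and 7.03 in WT, 4.89, 6.34 and 6.15 in dSAP and 27.6, 22.8 and 23.8 in dSRF. The dSRF libraries were thus several times above all others, WT and dSAP overlapped, and both lay above control. The rises were 0.69 ± 0.11 for WT, 0.59 ± 0.11 for dSAP and 2.69 ± 0.11 for dSRF, which is 6.44-fold (adjusted p = 6.78e-05, 0.000458 and 5.98e-14). Without the library labelled 3D dSRF 1 the last was 2.60 ± 0.11. ATF3 fell from 2D to 3D in control (-1.30 ± 0.11), WT (-2.42 ± 0.10) and dSAP (-1.79 ± 0.10). For dSRF the value was -0.24 ± 0.10 (adjusted p = 0.0886), and -0.33 ± 0.09 (adjusted p = 0.00513) without that library. The effect of WT was smaller in 3D than in 2D by -1.12 ± 0.15 (adjusted p = 7.61e-05) and that of dSRF larger by 1.06 ± 0.15 (adjusted p = 1.88e-05). For dSAP the difference of -0.49 ± 0.15 was not called (adjusted p = 0.108). It was called without the library labelled 3D dSRF 1 (-0.49, adjusted p = 0.026) and in a fit of only the libraries compared (-0.52, adjusted p = 0.0449). In the order of all 8 group means, only 3D WT and 3D dSAP, which are neighbours, had libraries that overlapped.

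**Figure D3:**
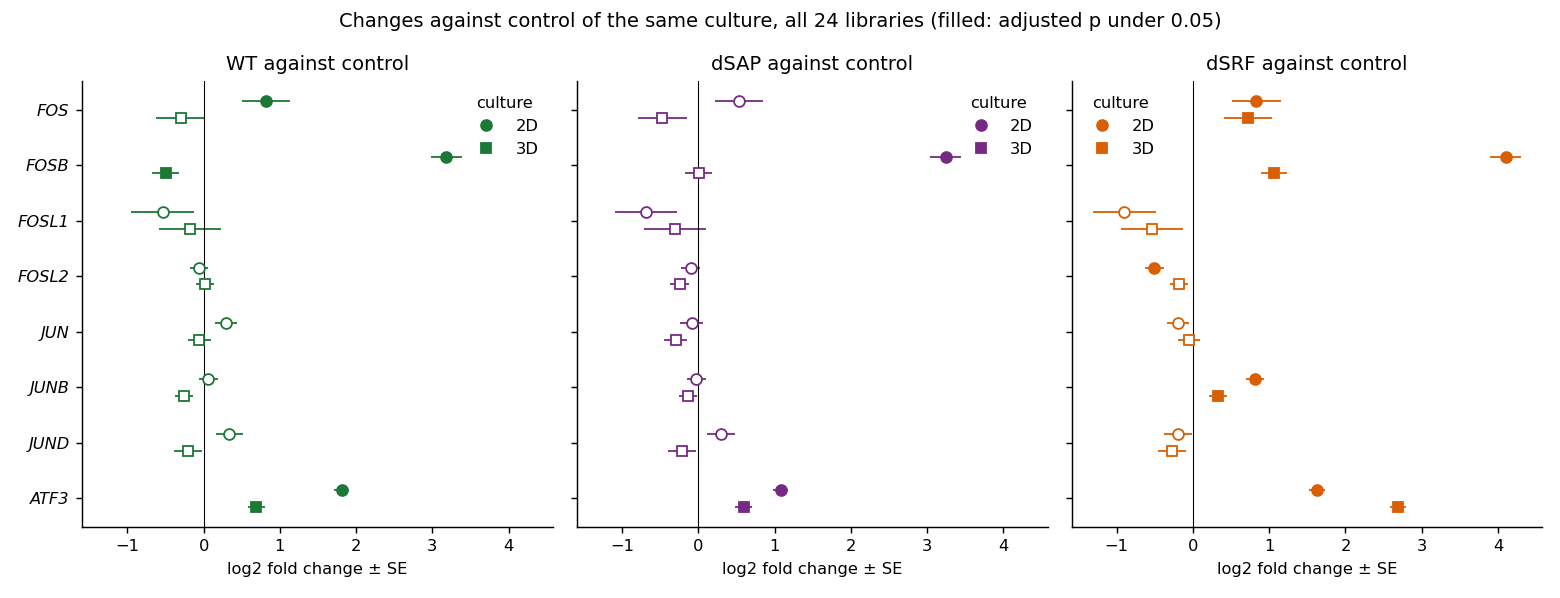
log2 fold change ± SE of the fit (x axis) of each gene (y axis) against control of the same culture, for WT, dSAP and dSRF (panels), in 2D (circles) and 3D (squares), with filled symbols where the adjusted p is under 0.05. FOSB in 2D and ATF3 in 3D dSRF (2.69) lie farthest to the right, and the long bars of FOSL1 show its SE of 0.41 in 2D, which is 0.09 without the library labelled 3D dSRF 1.

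FOSL1 read lower in the MRTF-A lines, but whether it was called turned on the 3D dSRF libraries. The gene (ENSG00000175592, chromosome 11, 65892049 to 65900573, minus strand) had 278, 214 and 289 CPM in 2D control, 174, 179 and 186 in WT, 169.9, 154 and 162 in dSAP, and 139, 137 and 143 in dSRF. Every 2D library of the MRTF-A lines lay below every 2D control library, and dSRF lay below dSAP and WT. In 3D the values were 192, 198 and 216 CPM in control, 175, 169.97 and 191 in WT, 156, 176 and 159 in dSAP, and 305, 56.4 and 53.4 in dSRF. The library labelled 3D dSRF 1 was the highest of all 24 for this gene and the other 2 of its group were the lowest. It stood 5.56-fold above the mean of those 2. In that library MRTFA was also low, at 664 CPM against 4840.3 and 4857, and its part in the result was not tested.

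With that library in the common fit, the FOSL1 log2 fold changes carried an SE of 0.41 and none of the 19 comparisons was called in edgeR (1 had an unadjusted p under 0.05, DESeq2 called 0 and limma on log2(TPM + 1) called 1), for example -0.90 in 2D dSRF (adjusted p = 0.0616) and -0.54 in 3D dSRF (adjusted p = 0.252) against control. Without it the SE in 2D was 0.09 and FOSL1 fell in 2D by 0.54 with WT, 0.69 with dSAP and 0.90 with dSRF (adjusted p = 3.40e-05, 2.75e-06 and 3.05e-08). In 3D it then fell by 1.88 (SE 0.11) with dSRF, a level 3.69-fold lower (adjusted p = 1.61e-11), and by 0.30 with dSAP (adjusted p = 0.00739). WT in 3D was at -0.18 ± 0.08 (adjusted p = 0.0951). The dSRF line was also lower in 3D than in 2D by 1.35 (SE 0.11), and its effect was stronger in 3D by -0.98 ± 0.14 (adjusted p = 1.17e-05), a difference that stood at 0.36 ± 0.58 with all libraries. Fits of only the 6 libraries of a 2D comparison gave calls as well, with adjusted p of 0.0234 for WT, 0.00641 for dSAP and 0.00106 for dSRF. In 3D such fits called WT (-0.17, adjusted p = 0.0202) and dSAP (-0.32, adjusted p = 0.00102) against control, and not dSRF. The 2D dSRF call was also reached without the library labelled 3D dSRF 2 (adjusted p = 0.0307) or 3 (adjusted p = 0.0254).

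**Figure D4:**
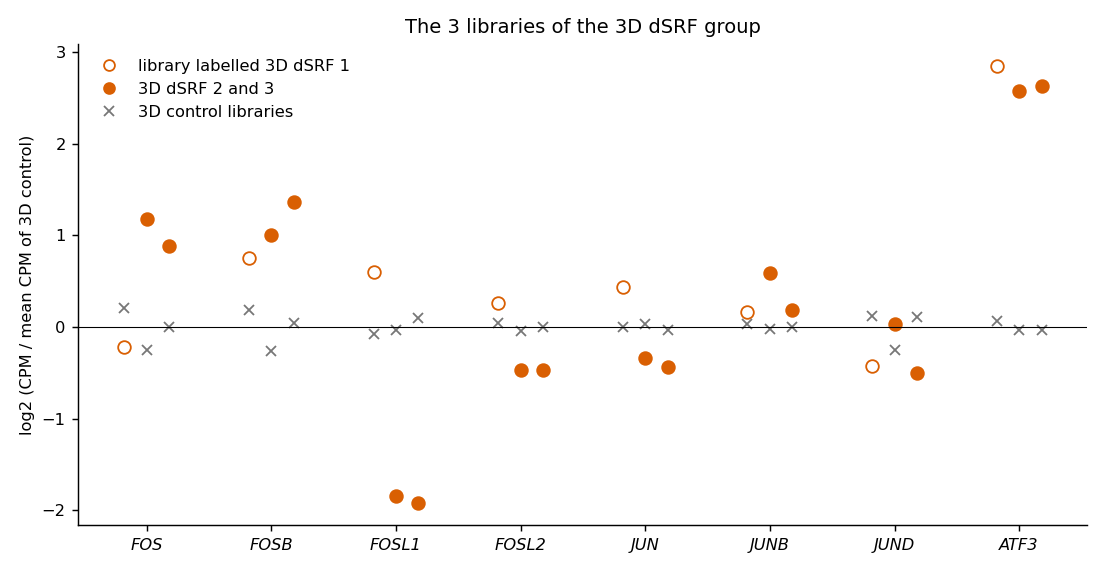
log2 ratio (y axis) of the CPM of each 3D dSRF library to the mean of 3D control, for the 8 genes (x axis), with the 3D control libraries as crosses. Library 1 (open circles) is on the other side of 0 from libraries 2 and 3 for FOS, FOSL1, FOSL2 and JUN, and with them for FOSB, JUNB and ATF3.

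FOSL2 varied least and was lower with dSRF in 2D, and with dSRF and dSAP in 3D without the library labelled 3D dSRF 1. FOSL2 (ENSG00000075426, chromosome 2, 28392448 to 28417312, plus strand) ran from 197 to 337 CPM, a 1.71-fold range. In 2D it had 330.3, 299 and 337 CPM in control, 307, 306 and 312 in WT, 282, 317 and 302 in dSAP and 228, 222 and 229 in dSRF. The dSRF libraries lay below the other 9. This was a fall of 0.51 (SE 0.12, adjusted p = 0.0012) against control, with falls of 0.45 against WT and 0.41 against dSAP. In 3D the dSRF libraries read 326, 198 and 197 CPM against 265 to 282 in control, so the first lay above and the others below. The log2 fold change was -0.18 ± 0.12 (adjusted p = 0.193), and -0.47 ± 0.05 (adjusted p = 1.84e-09) without the library labelled 3D dSRF 1. With FOSL1 it set the family mix: in libraries 2 and 3 of 3D dSRF FOSL1 held 51.7% and 49.8% of FOS family TPM and FOSL2 42.8% and 43.6%. In the other 7 groups no library had FOSL1 under 65.6% or FOSL2 over 32.2%, and library 1 had 79.4% and 19.7%. In 3D dSAP FOSL2 had 234, 233 and 225 CPM, below control but not called with all libraries. It was called without the library labelled 3D dSRF 1 (-0.24, adjusted p = 3.65e-05) and in a fit of only the libraries compared (-0.25, adjusted p = 0.000118). From 2D to 3D the fall in dSAP was called, and without that library so were those in control (-0.24), WT (-0.16) and dSRF (-0.20).

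FOS, the founding member and an SRF target in textbooks, was near the floor of these data. FOS (ENSG00000170345, chromosome 14, 75278774 to 75282230, plus strand) had 17 to 68 counts per library. Its level was 1.07, 1.99 and 1.30 CPM in 2D control, 3.00, 2.17 and 2.48 in WT, 2.43, 1.68 and 2.14 in dSAP, and 2.58, 2.24 and 2.90 in dSRF. WT and dSRF lay above control, by little. In edgeR FOS rose by 0.82 ± 0.32 in 2D WT (adjusted p = 0.0463) and 0.83 ± 0.32 in 2D dSRF (adjusted p = 0.0265), while dSAP was at 0.53 ± 0.32 (adjusted p = 0.217). The first call was lost in 17 of 31 alternative settings and the second in 6, and on log2(TPM + 1) the WT value was 0.15 (adjusted p = 0.725).

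In 3D FOS read 1.86, 1.34 and 1.61 CPM in control and 1.38, 3.63 and 2.96 in dSRF, where the first library overlapped control and the others did not. The rise of 0.72 ± 0.31 (adjusted p = 0.0479) was lost in 23 of 31 settings, and without the library labelled 3D dSRF 1 it was 1.03 ± 0.27 (adjusted p = 0.00155). FOS was lower in 3D than in 2D in WT (-0.97 ± 0.32) and dSAP (-0.85 ± 0.32), and neither call held on log2(TPM + 1), where the values were -0.07 (adjusted p = 0.87) and -0.45 (adjusted p = 0.212). Over the 19 comparisons FOS was called in 7 by edgeR, 7 by DESeq2 and 1 by limma on log2(TPM + 1).

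JUNB, a JUN protein that can restrain JUN, was higher in the dSRF line, and higher in 3D in control, WT and dSAP. It lies on chromosome 19 (ENSG00000171223, 12791496 to 12793315, plus strand). In 2D it read 33.8, 40.1 and 29.1 CPM in control, 33.6, 34.2 and 39.7 in WT, 31.2, 32.4 and 37.5 in dSAP and 63.0, 52.5 and 64.4 in dSRF. Only dSRF stood apart, above all 9 other libraries, with a rise of 0.81 ± 0.12 over control (adjusted p = 6.76e-06). In 3D the libraries had 53.9, 51.9 and 52.8 CPM in control, 42.8, 44.4 and 45.2 in WT, 45.3, 52.2 and 46.9 in dSAP and 59.3, 79.2 and 60.1 in dSRF. There dSRF was 0.32 ± 0.12 over control (adjusted p = 0.0195, 0.39 without the library labelled 3D dSRF 1). The call was lost without 3D dSRF library 2 (0.18, adjusted p = 0.172) or 3D control library 2 (0.31, adjusted p = 0.0531), and in a fit of only the libraries compared (0.32, adjusted p = 0.0906). In 3D WT lay below control without overlap. This was not called in edgeR with all libraries. In edgeR it was called in a fit of only the libraries compared (-0.26, adjusted p = 0.00073) and without 3D dSRF library 2 (-0.26, adjusted p = 0.0481). It was also called by limma on log2(TPM + 1) (-0.36, adjusted p = 0.0149). Control was 0.63 ± 0.12 higher in 3D than in 2D (adjusted p = 0.000235), and JUNB rose in 3D by 0.51 ± 0.12 in dSAP and by 0.30 ± 0.12 in WT, the last lost in 14 of 31 settings. For dSRF the libraries of the cultures overlapped and no difference was called. The effect of dSRF was smaller in 3D by -0.48 ± 0.17 (adjusted p = 0.0342, lost in 10 of 31 settings), and -0.42 ± 0.17 (adjusted p = 0.057) without the library labelled 3D dSRF 1. JUNB shares 259 exon bases with HOOK2 on the opposite strand. The library kit keeps the strand, per the labels, but whether the quantification used it is not stated, and HOOK2 group means ran from 12.03 to 21.6 CPM.

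JUN, the founding JUN protein and a strong activator, was lower in 3D in the WT and dSAP lines. Without the library labelled 3D dSRF 1 it was lower in 3D in all 4 lines. Against control, with all libraries, edgeR called it in none of 6 comparisons (0 with an unadjusted p under 0.05), nor did DESeq2 or limma on log2(TPM + 1). JUN (ENSG00000177606, chromosome 1, 58780788 to 58784327, minus strand) had 114, 124 and 118 CPM in 2D control, 143, 148 and 147 in WT, 115, 104 and 116 in dSAP and 114, 89.9 and 107 in dSRF. WT stood above the other 3 groups, which overlapped. The WT value of 0.30 ± 0.15 over control was not called (adjusted p = 0.12) and was 0.30 ± 0.06 (adjusted p = 0.000294) without the library labelled 3D dSRF 1, whereas dSRF was 0.50 below WT (SE 0.15, adjusted p = 0.00647). In 3D the means were 98.5 ± 2.21 CPM in control, 94.8 ± 3.85 in WT and 80.2 ± 5.17 in dSAP. The dSRF libraries had 133, 77.9 and 72.6 CPM, and their difference from control was -0.05 ± 0.15 with and -0.39 ± 0.07 without library 1. From 2D to 3D JUN fell in WT by 0.62 (SE 0.15) and in dSAP by 0.48 (SE 0.15). Without the library labelled 3D dSRF 1 edgeR also called the values of control (-0.27, adjusted p = 0.000789) and dSRF (-0.46, adjusted p = 1.6e-05). Against control, 2D dSRF (-0.20, adjusted p = 0.00788) and 3D dSAP (-0.30, adjusted p = 0.000618) were then called as well.

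JUND, the JUN protein most abundant in many resting cells, gave few calls. JUND (ENSG00000130522, chromosome 19, 18279760 to 18281622, minus strand) ran from 53.7 to 129 CPM and its libraries spread widely within groups, with 81.2, 53.7 and 97.7 CPM in 2D dSRF. None of the 6 comparisons with control was called in edgeR (unadjusted p under 0.05 in 0 of 6), with values between -0.28 and 0.34. In 2D dSRF was 0.53 below WT (SE 0.18, adjusted p = 0.0155) and 0.49 below dSAP, each lost in 3 of 31 settings, and from 2D to 3D JUND fell by 0.67 (SE 0.18) in WT and 0.64 (SE 0.18) in dSAP. The scale matters for this gene: 3D dSRF against WT was -0.07 ± 0.18 in CPM and 0.28 on log2(TPM + 1) (adjusted p = 0.00674). On that scale limma also called 2D WT (0.22, adjusted p = 0.048), 2D dSRF (-0.21, adjusted p = 0.0365) and 3D WT (-0.32, adjusted p = 0.00558) against control.

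ATF3 was called in all 6 comparisons with control and FOSB in 5. With all libraries in the fit, the share called among the 8 genes was in none of these 6 comparisons above that among all 14986 genes tested. In 2D WT 3 rose and none fell, where 20.1% of all genes rose and 19.2% fell, 39.3% in all. In 2D dSAP 2 rose and none fell, against 17.5% and 15.4% of all genes (32.9% in all). With dSRF in 2D 4 rose and 1 fell, against 34.5% and 31.5% (66% in all). In 3D WT 1 rose and 1 fell, against 18% and 17% (35% in all), and in 3D dSAP 1 rose, against 16.5%, with 13.1% falling (29.6% in all). With dSRF in 3D 4 rose and none fell, against 35.1% and 31.3% (66.4% in all). Without the library labelled 3D dSRF 1 the last count became 4 and 3, where 72.8% of all genes were called. In 2D 5 of the 8 were then called with WT, 4 with dSAP and 7 with dSRF. The shares of all genes were 51.9%, 47.1% and 72%. In 3D 2 were called with WT and 4 with dSAP, against 48.1% and 44% of all genes. The share of the 8 was thus above that of all genes in each comparison with control but 3D WT, so its rank rests on that library.

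Between the MRTF-A lines the dSRF mutant differed most, and for all genes alike. The level of MRTFA also differed between these lines, and its part was not tested. In 2D dSAP was lower than WT for ATF3 and higher for none of the 8, against 7.71% and 5.09% of all genes. Without the library labelled 3D dSRF 1 it was lower for JUN as well (27.7% of all genes called). In 2D dSRF was higher than WT for 2 genes and lower for 3, against 33.6% and 30.4% of all genes (64% in all), and compared with dSAP it was higher for 3 and lower for 2, against 33.6% and 31.4% (65% in all). In 3D dSRF was higher for FOS, FOSB, JUNB and ATF3 and lower for none, both against WT, where 34.2% of all genes were higher and 31.6% lower (65.9% in all), and against dSAP, with 32.9% and 31.8% (64.7% in all). Without the library labelled 3D dSRF 1 it was higher for 4 genes and lower for 3 against WT (FOSL1, FOSL2 and JUN; 72.9% of all genes called), and higher for 4 and lower for 2 against dSAP (FOSL1 and FOSL2; 71.9%). Between dSAP and WT in 3D edgeR called none of the 8, where 5.45% of all genes were higher and 6.63% lower (12.1% in all). Of the 8, 2 had an unadjusted p under 0.05, and DESeq2 and limma on TPM called 0. Without the library labelled 3D dSRF 1 the count was 3, FOSB (0.50, adjusted p = 0.032), FOSL2 (-0.26, adjusted p = 3.20e-05) and JUN (-0.24, adjusted p = 0.00683), where 27.2% of all genes were called.

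From 2D to 3D more of the 8 fell than rose in the WT and dSAP lines, and in dSRF, where FOSB alone was called. Without the library labelled 3D dSRF 1 this held in all 4 lines. In control FOSB and JUNB rose and ATF3 fell, where 23% of all genes rose and 24.4% fell (47.4% in all). Without that library FOSL1, FOSL2 and JUN fell in control as well. This made 2 higher and 4 lower, where 28.8% of all genes rose and 29.9% fell. In WT JUNB rose and 5 fell, against 24.4% and 25.7% (50% in all), and in dSAP 1 rose and 6 fell, against 24.2% and 23.5% (47.8% in all). The median log2 fold change of the 8 was -0.65 in WT and -0.56 in dSAP, against 0.00 and 0.01 over all genes. In dSRF FOSB fell and none rose, against 9.84% and 7.19% (17% in all), a count that was 5 without the library labelled 3D dSRF 1 (48.2% of all genes). A line's effect differed between cultures for FOSB and ATF3 with WT, both lower in 3D, where 4.96% of all genes were lower and 4.22% higher (9.18% in all). With dSAP it differed for FOSB, against 1.2% lower and 1.13% higher (2.34% in all), and with dSRF FOSB and JUNB were lower and ATF3 higher, against 14.6% and 14.7% (29.2% in all). Without the library labelled 3D dSRF 1 the WT effect was called for FOS, FOSB, FOSL1, JUN and ATF3 (23.8% of all genes called). FOS was then at -1.13 (adjusted p = 0.0274), JUN at -0.35 (adjusted p = 0.00507) and FOSL1 at 0.36 (adjusted p = 0.0366). The dSAP effect was then called for FOSB, FOSL1 and ATF3 (11.4%), and the dSRF effect for the same genes (43.8%). Comparisons within a culture share control libraries, so their calls are not independent of each other.

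Other early response genes were called in both directions. Of 18 tested, 9 rose and 2 fell in 2D WT, 6 and 1 in dSAP, and 9 and 3 in dSRF, where 39.3%, 32.9% and 66% of all genes were called. The medians were 0.67, 0.34 and 0.64, where that of all genes was between -0.02 and 0.02. NR4A1, an orphan nuclear receptor, and DUSP1, a phosphatase that switches off MAP kinases, rose by 1.63 ± 0.14 and 1.98 ± 0.19 in 2D WT, and in 2D dSRF DUSP1 rose by 3.58 ± 0.19 and NR4A2 by 5.597 ± 0.40. In 3D 4 rose and 6 fell with WT, 4 and 2 with dSAP, and 11 and 4 with dSRF, where 35%, 29.6% and 66.4% of all genes were called. In 3D dSRF DUSP1 was up 4.36 ± 0.20 and NR4A1 2.45 ± 0.15 over control. For dSRF the count was again 11 and 4 without the library labelled 3D dSRF 1.

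Among genes of the stress response around ATF3, more rose than fell in 2D and, with dSRF, in 3D. Of 14 tested, 11 rose and 2 fell in 2D WT (median 0.91), 9 and 1 in 2D dSAP (median 0.47) and 9 and 4 in 2D dSRF (median 0.52). Of all genes, 20.1%, 17.5% and 34.5% rose and 19.2%, 15.4% and 31.5% fell in these comparisons. CHAC1, a glutathione-degrading enzyme that ATF4 induces, rose by 2.20 ± 0.15 in 2D WT, ASNS, the asparagine synthetase, by 1.33 ± 0.09, ATF4 itself by 0.97 ± 0.08 and the ER chaperone gene HSPA5 by 1.04 ± 0.09. In 2D dSRF CHAC1 rose by 2.93 ± 0.15 and SESN2 by 1.65 ± 0.12, while DDIT4 fell by 3.31 (SE 0.18). In 3D 2 rose and 5 fell with WT and the same counts held for dSAP, and DDIT3 (CHOP), a proapoptotic factor, fell by 0.94 with WT and by 0.67 with dSAP. Of all genes, 35% were called with WT and 29.6% with dSAP in 3D. With dSRF, where 66.4% of all genes were called, 10 rose and 4 fell, CHAC1 by 4.26 ± 0.16 and ATF4 by 1.00 ± 0.08, and the count was the same without the library labelled 3D dSRF 1. The difference of the WT effect between cultures was called for 13 of the 14, 12 of them lower in 3D and 1 higher (median -0.93), where 9.18% of all genes were called, with DDIT3 at -2.21 ± 0.20 and HSPA5 at -1.19 ± 0.13.

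**Figure D5:**
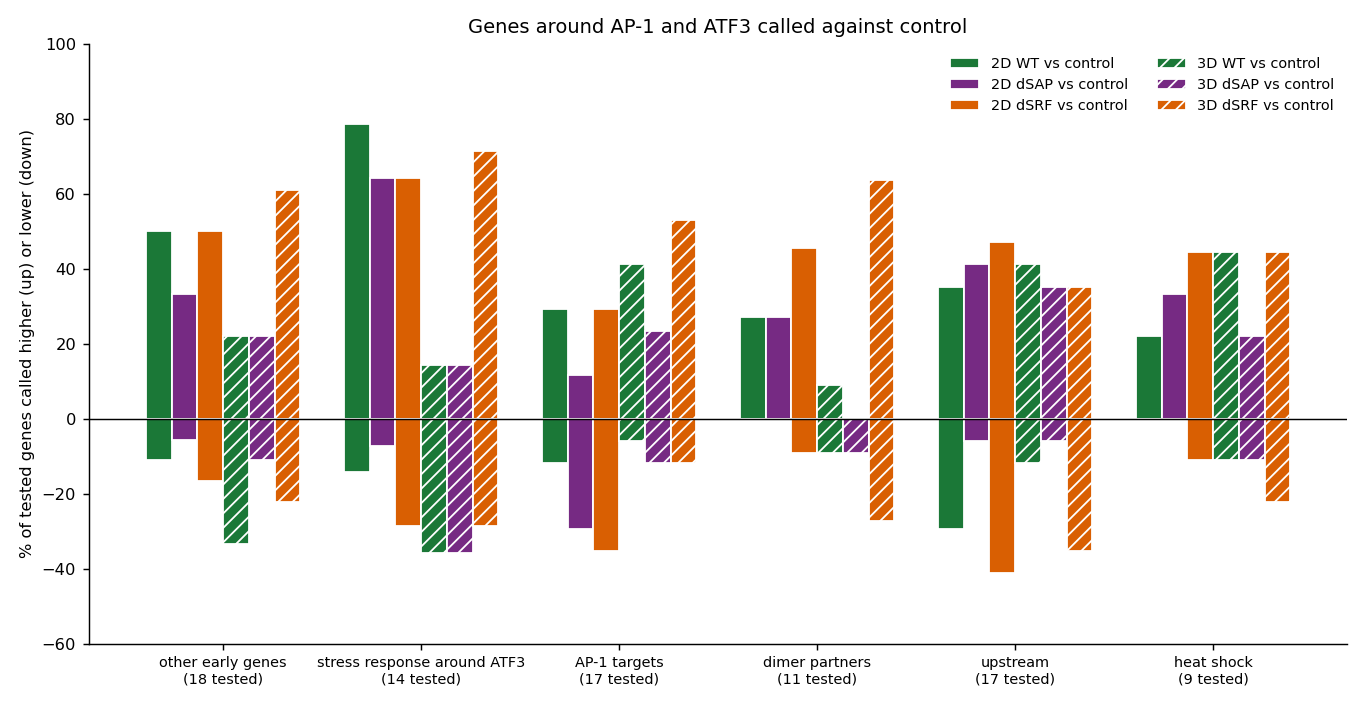
Share of the tested genes of 6 lists (x axis) called higher (bars up) or lower (bars down) against control of the same culture, in percent (y axis), for 2D (plain) and 3D (hatched). For the stress response around ATF3 the WT bars go from 11 of 14 higher in 2D to 2 of 14 in 3D, and the dSRF bars are 9 and 10.

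Genes known to be driven by AP-1 gave calls in both directions, at shares near those of all genes in 2D. Of 17 tested, 5 rose and 2 fell in 2D WT, 2 and 5 in 2D dSAP and 5 and 6 in 2D dSRF, where 39.3%, 32.9% and 66% of all genes were called. In 3D the counts were 7 and 1, 4 and 2, and 9 and 2, against 35%, 29.6% and 66.4% of all genes. The dSRF count in 3D became 8 and 6 without the library labelled 3D dSRF 1. MMP1, the interstitial collagenase, had 1 to 3 counts in each control library, 101 to 132 in the 2D dSRF libraries and 164, 399 and 418 in those of 3D dSRF, and was called higher in both. PLAU, the urokinase gene, rose with dSRF by 1.74 ± 0.11 in 2D and 3.59 ± 0.12 in 3D, and the cytokine gene LIF by 1.76 ± 0.08 and 2.71 ± 0.08. IL11, a cytokine, rose by 2.08 ± 0.24 in 2D WT and 2.11 ± 0.27 in 3D WT, and CD44, a hyaluronan receptor, fell in 3D with WT by 0.52 and with dSAP by 0.69.

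The remaining lists held the other dimer partners, the kinases and factors upstream, and heat shock genes, to be read against the same shares of all genes called (39.3%, 32.9% and 66% in 2D and 35%, 29.6% and 66.4% in 3D for WT, dSAP and dSRF). Of 11 partners tested, 3 rose in 2D WT and 3 in 2D dSAP, 5 rose and 1 fell in 2D dSRF, 1 rose and 1 fell in 3D WT, 1 fell in 3D dSAP, and 7 rose and 3 fell in 3D dSRF. MAFG, a small MAF protein, rose by 0.91 ± 0.05 in 2D WT and 1.01 ± 0.05 in 2D dSRF, and in 3D dSRF MAFF rose by 1.62 ± 0.10 and MAFK by 1.52 ± 0.14. Of 17 upstream genes, 6 rose and 5 fell in 2D WT, 7 and 1 in dSAP and 8 and 7 in dSRF, with 7 and 2, 6 and 1, and 6 and 6 in 3D. SRF itself rose by 1.84 ± 0.08 in 2D WT and 2.17 ± 0.09 in 3D WT, while with dSRF the ternary complex factor gene ELK1 rose by 1.01 ± 0.04 in 2D and 1.05 ± 0.04 in 3D and MAPK3, which encodes ERK1, fell by 1.59 and 1.01. Of 9 heat shock genes, 2 to 4 rose and at most 2 fell in each of the 6 comparisons, with HSPB1 up 2.08 ± 0.14 in 2D WT.

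Each gene's nearest patterns were read from log2 CPM over the 24 libraries, as Pearson r among 12715 genes of at least 1 CPM on average. These libraries share groups, so the values describe the profile and carry no p. RAI14 (r = 0.979), STARD4 (0.978) and MAP1LC3B (0.971) were nearest to ATF3, and C1QBP (0.953), SRSF7 (0.939) and PA2G4 (0.937) to FOSL1. For JUNB they were TRIM47 (0.957), RPP25 (0.944) and PLEKHF1 (0.942), and for FOSL2 TXNRD1 (0.943), PHLDA1 (0.940) and ADAMTS12 (0.936). JUN was nearest to CDK6 (0.920), CCDC167 (0.915) and SRPK1 (0.907), and FOSB to VTI1A (0.889), TSPAN17 (0.876) and PLCE1 (0.872). FOS had TRIM2 (0.862), XBP1 (0.856) and TRIB3 (0.812), the last 2 from the stress list, and JUND SCAND1 (0.814), TMED7 (0.782) and CHIC2 (0.781). Among the 8 themselves, the highest r was 0.794 for FOSL1 with FOSL2 and the lowest -0.751 for FOSL2 with JUNB, and ATF3 stood at 0.717 with FOS and 0.688 with FOSB.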

How the data were processed

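RNA was measured in 24 libraries of MDA-MB-231, 3 for each of 4 lines in 2 cultures. A stranded kit with ribosomal depletion was used on total RNA, per the labels' protocols, though the molecule field says polyA RNA. Reads were processed with FastQC and Salmon on hg38, per the submitters' processing notes (annotation not given in the sources used here). Per gene, the authors deposited estimated counts and TPM. From these, counts were rounded and fitted with edgeR 4.0.16 (R 4.3.3): filterByExpr, TMM factors (0.890 to 1.09), and a robust quasi-likelihood model of 8 groups with 16 residual degrees of freedom. The SE is the log2 fold change divided by the root of the F statistic. A call is a Benjamini-Hochberg adjusted p under 0.05, over 14986 genes and in each of 19 comparisons. Library totals of 13968829 to 23023415 counts and a common biological coefficient of variation of 13.1% set the precision. Ensembl ids were matched to GENCODE 29 (34436 of 37247 with a symbol), and groups were taken from the titles. Alternatives were DESeq2 1.42.0, limma 3.58.1 on log2(TPM + 1) and log2(TPM + 0.1), RLE scaling, no filter, a replicate block, only the libraries compared, and each library left out. All 8 genes are named, up to 4 genes per list and comparison with the lowest p, and the 3 nearest patterns. The genes and lists were chosen with earlier results of these data known. Tests were tried on simulated data first. Figures were drawn with Python.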

Additional observations from a re-analysis of the deposited data

Results flagged for a closer look

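These results were picked out because a test of the difference of a line's effect between the 2 cultures (3D minus 2D, edgeR over all genes, all 24 libraries) was called. For FOSB the differences were -3.68 for WT, -3.24 for dSAP and -3.04 for dSRF, and for ATF3 -1.12 for WT and 1.06 for dSRF. For JUNB the difference was -0.48 for dSRF (adjusted p = 0.0342), a call lost in 10 of 31 alternative settings, with adjusted p from 0.00355 to 0.134 over them. The FOSB and ATF3 differences were called in all 31.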

How the results depend on the processing

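Of 59 calls on the 8 genes, 43 held under all 31 alternatives and 16 were lost under at least 1. Calls on FOS were lost most, and its counts were low, at 17 to 68 per library. FOSB had 14, 11 and 8 counts in 2D control, and its 2D calls against control held under all 31. Whether depth is the reason was not tested. Leaving out the library labelled 3D dSRF 1 turned 4 results from uncalled values above 0 to called values below 0, which over all left-out libraries ran from -0.98 to 0.75 for FOSL1 in the dSRF effect between cultures, from -0.23 to 0.18 for FOSL2 in 3D dSRF against dSAP, from -0.20 to 0.21 for FOSL2 in dSRF 3D against 2D, and from -0.34 to 0.16 for JUN in 3D dSRF against WT, with the first number that without it. JUND in 3D dSRF against WT was 0.28 with both TPM pseudocounts. On counts, not per length, FOSL1 held 44.4% and 42.2% of its family in 2D and 3D control and JUND 36.7% and 34.9%. The replicate numbers did not pair the libraries (1 of 48 same-numbered pairs correlated over 0.1, range -0.131 to 0.108), and the replicate block changed 2 counts of calls against control, 3D WT from 2 to 1 and 3D dSRF from 4 to 3. The 3D WT count was also 1 with no filter and with DESeq2. In fits of only the libraries compared, the count of the 8 called was 5 in 2D WT against control, 3 in 2D dSAP against WT, 4 in 3D dSAP and 2 in 3D dSRF against control, 2 in 3D dSAP against WT, 5 for control and 0 for dSRF between cultures, and 5 and 2 for the WT and dSAP effects between cultures. The dSRF count between cultures was 2 with DESeq2 and 0 on log2(TPM + 0.1). The cause of these shifts was not tested.

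With 1 library left out, the count called ranged as follows. In 2D it was 2 to 5 for WT, 2 to 4 for dSAP and 4 to 7 for dSRF against control, 1 to 2 for dSAP against WT, and 4 to 6 for dSRF against WT and against dSAP. In 3D it was 1 to 3, 1 to 4 and 2 to 7 against control, 0 to 3 for dSAP against WT, 3 to 7 for dSRF against WT and 4 to 6 against dSAP. Between cultures it was 3 to 6 for control, 4 to 7 for WT, 5 to 7 for dSAP and 1 to 5 for dSRF, and for the effects 2 to 5, 1 to 3 and 2 to 4.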
